A study of Mus musculus with 4 samples.

Results

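The insulin-like growth factor (IGF) genes described here are 10 genes taken by their symbols from the 55416 features of a single-cell RNA sequencing series of the mouse femoral epiphysis, the growing end of the thigh bone. They comprise the ligands Igf1 and Igf2, the receptors Igf1r and Igf2r, and the binding protein genes Igfbp2, Igfbp3, Igfbp4, Igfbp5, Igfbp6 and Igfbp7. Each symbol stood in 1 row of the files, and 9 of the 10 had at least 1 unique molecular identifier (UMI, a tag that counts 1 captured transcript). All mice were wild type, with no treatment named, and the 4 groups differ in age alone, postnatal day 7, 8, 10 or 12, each a single library. How many animals gave a library was not given in the sources used here, so the day, the library and its depth cannot be told apart and no difference between days has a replicate check.

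The IGF ligands are secreted growth factors that act on the receptor tyrosine kinase made from Igf1r, and they are known as drivers of growth plate cartilage enlargement and bone lengthening. The product of Igf2r binds IGF2 without such a kinase and carries it to lysosomes, together with lysosomal enzymes. The binding proteins hold IGFs in the fluid and matrix around cells, where proteases such as PAPPA release them, while the product of Igfbp7 is a vessel and matrix protein that binds IGFs only weakly.

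The libraries held 12886, 12469, 10729 and 18108 barcodes in order of day, of which 11309, 11464, 10028 and 16254 cells were kept, with medians of 3103 to 7706.5 UMIs per cell. Pairs of libraries shared 72 to 282 barcodes. Cells were sorted into classes by marker genes that include none of the 10 genes, and 98.1%, 92.0%, 79.2% and 86.5% of cells took a class. Chondrocyte-like cells made up 94.1%, 74.7%, 6.84% and 26.7% of the kept cells, so values over whole libraries follow this makeup and levels are given within classes. Levels are counts per 1000000 UMIs (CPM) of the summed UMIs of a class in a library, with exact 95% Poisson intervals that cover counting error only. Classes under 50 cells in a library were not read, which on day 7 left the chondrocyte-like (10647), fibroblast-like (99), tendon or ligament-like (98) and macrophage-like (64) cells.

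The 3′ tags of the files do not show protein sequence, so a feature found in 5 of the 6 binding protein genes is shown from the coding sequences of the GENCODE M21 transcripts (GRCm38). The stretches below, 5′ to 3′, hold the cysteine-rich cluster of the IGF-binding domain, with cysteine codons in capitals. The cluster was searched as a cysteine codon, a GGN codon, 2 cysteine codons, 2 further codons and a cysteine codon.
Igfbp2: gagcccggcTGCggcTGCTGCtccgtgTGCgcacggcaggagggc
Igfbp3: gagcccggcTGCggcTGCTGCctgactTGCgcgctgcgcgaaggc
Igfbp4: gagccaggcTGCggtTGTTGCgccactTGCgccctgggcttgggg
Igfbp5: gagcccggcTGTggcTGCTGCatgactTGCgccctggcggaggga
Igfbp7: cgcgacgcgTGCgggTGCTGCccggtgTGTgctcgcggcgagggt
Against the Igfbp5 stretch, 37 of 45 bases were identical in Igfbp3, 33 each in Igfbp2 and Igfbp4, and 24 in Igfbp7. The cluster was found once in these 5 genes and not in the 238 codons of Igfbp6, whose coding sequence holds 16 cysteine codons against 18 to 20 in the others. Igfbp7 was the most distant of the 5 stretches by this count.

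Igf1, the ligand made under growth hormone in liver and locally in connective tissue, was highest in fibroblast-like cells on each day. They held 1360, 953, 2288 and 2517 CPM on days 7, 8, 10 and 12, with counting intervals that overlapped those of no other class read. Macrophage-like cells held 533, 615, 615 and 384 CPM and tendon or ligament-like cells 632, 612, 604 and 544 CPM. The intervals of these 2 classes overlapped on days 7, 8 and 10, and only on day 12 was the tendon or ligament class clearly above. Reticular stromal-like cells, the marrow stroma marked by Cxcl12 and Lepr, held 332 and 553 CPM on days 10 and 12. Chondrocyte-like cells were far lower, at 14.6, 32.8, 65.4 and 38.9 CPM. B lineage-like cells, which serve as a background class for stromal genes, held 42.6 and 28.1 CPM on days 10 and 12, so the chondrocyte level lay close to that of background on those days. Neutrophil-like cells held 134 and 33.4 CPM and granulocyte progenitor-like cells 60.8 and 16.7 CPM.

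Fibroblast-like cells supplied 24.7%, 24.4%, 39.3% and 38.2% of all Igf1 UMIs of a library while holding 0.849%, 3.42%, 6.32% and 2.97% of its UMIs. With every cell thinned to 1000 UMIs, an Igf1 UMI was found in 65.8% of fibroblast-like, 30.7% of reticular stromal-like, 30.6% of tendon or ligament-like and 28.1% of macrophage-like cells on day 12. The share was 4.91% in chondrocyte-like cells (median 8462 UMIs before thinning) and 2.99% (95% exact Clopper-Pearson interval 2.03 to 4.25) in B lineage-like cells (median 3684 UMIs). Unthinned, the fibroblast and B lineage shares were 85.0% and 8.18%. Within libraries, fibroblast-like cells exceeded all other cells by a mean log2 ratio of 4.01 ± 0.98 (SD, n = 4 libraries), higher in 4 of 4. The other cells differ in makeup between libraries, so these 4 ratios have unlike comparators.

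Igf2, the fetal ligand that is expressed from the paternal chromosome, had 0 UMIs in all 4 libraries. A count of 0 allows up to 0.0678, 0.0645, 0.0227 and 0.0177 CPM over all barcodes on days 7, 8, 10 and 12. The neighbouring imprinted gene H19, a noncoding RNA controlled together with Igf2, had 377131 UMIs in the same files. In the GENCODE M21 annotation (GRCm38, chromosome 7, minus strand) Igf2 spans 142650766 to 142666816 and the readthrough gene Gm49394 spans 142650769 to 142669942. The 3′ exon of Igf2 has 3287 bases, of which 3284 (99.9%) also belong to exons of Gm49394, and of all 5723 exonic bases 3596 (62.8%) do. Gm49394 itself had 3 UMIs in all, and Igf2os, on the opposite strand, had 773. How the counting program treated reads that fall in both genes was not given in the sources used here and was not tested, so the 0 is a property of the deposited counts and is not read as absence of Igf2 RNA.

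Igf1r, the signalling receptor, was spread over nearly all classes. Chondrocyte-like cells held 286, 263, 348 and 439 CPM, the highest of the 4 classes on day 7 and of the 9 classes on day 8. On day 10 pericyte or smooth muscle-like cells were highest at 385 CPM. Neutrophil-like cells held 327 and 688 CPM on days 10 and 12, the latter above every other class. Granulocyte progenitor-like cells held 329 and 435 CPM, and stem and progenitor-like cells 402 CPM on day 12. The stromal classes were lower, with 307 CPM in fibroblast-like and 208 CPM in tendon or ligament-like cells on day 12. Macrophage-like (138 CPM) and osteoclast-like cells (94.6 CPM) were lower still. Chondrocyte-like cells exceeded the other cells of their library by 0.94 ± 0.17 on the log2 scale (n = 4), higher in 4 of 4 libraries. They gave 95.5%, 81.1%, 15.8% and 47.9% of all Igf1r UMIs, against 91.9%, 71.8%, 8.85% and 29.1% of all UMIs.

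Igf2r, the clearance receptor, was highest in chondrocyte-like, fibroblast-like and pericyte or smooth muscle-like cells. Chondrocyte-like cells held 303, 265, 226 and 191 CPM and fibroblast-like cells 330, 299, 237 and 194 CPM, and the intervals of these 2 classes overlapped on days 7, 10 and 12. Pericyte or smooth muscle-like cells held 355, 250 and 221 CPM on days 8, 10 and 12. B lineage-like cells held 28.1 and 32.8 CPM on days 10 and 12. Other blood classes ran higher, with 92.1 CPM in T or NK-like and 121 CPM in macrophage-like cells on day 12, beside 106 CPM in endothelial-like and 93.4 CPM in osteoblast lineage-like cells. Osteoclast-like cells held 145, 160 and 175 CPM on days 8, 10 and 12. Airn, an antisense RNA that overlaps Igf2r on the opposite strand, stood at 993 and 645 CPM in chondrocyte-like cells on days 7 and 12. Whether the counting used strand was not given in the sources used here, so reads of Igf2r and Airn cannot be told apart.

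**Figure D1:**
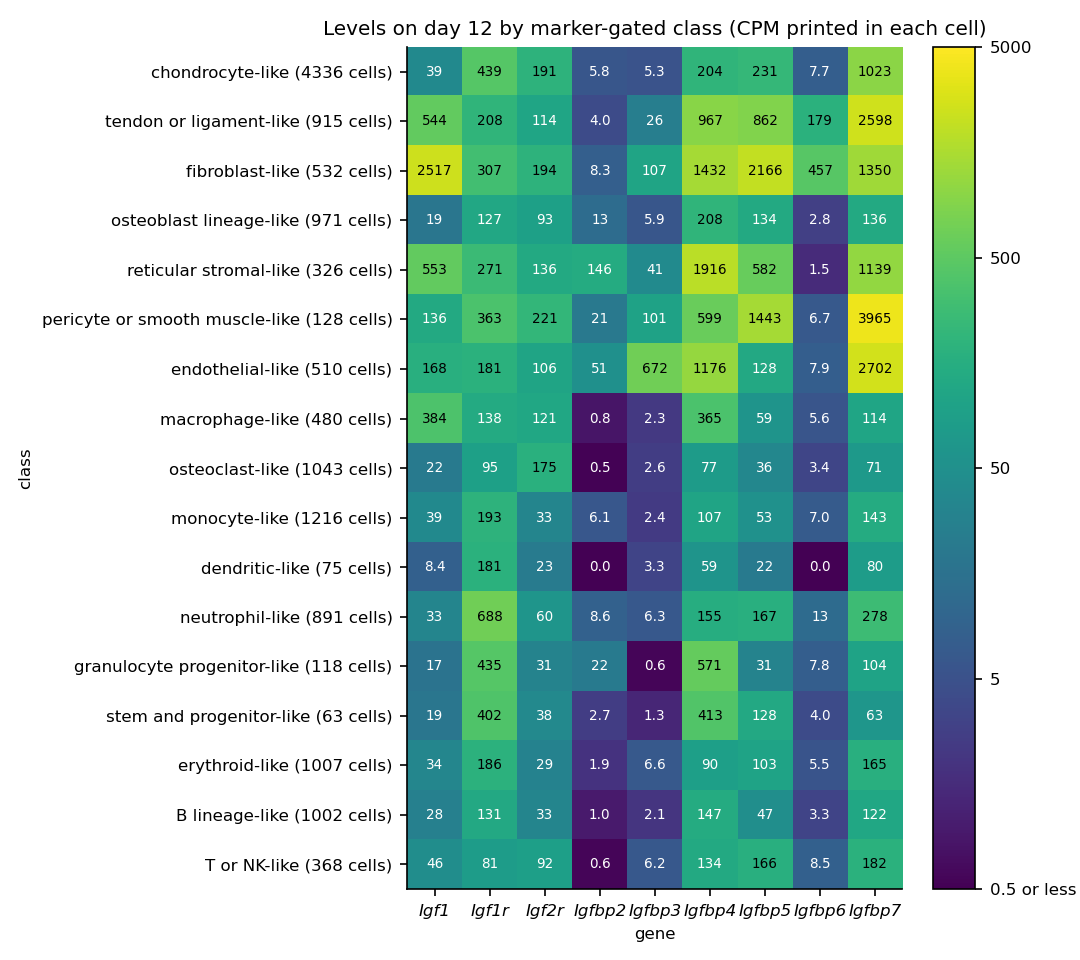
Level of each of the 9 detected genes (columns) in 17 marker-gated classes (rows) in the day 12 library, as CPM of the class sum printed in each cell and coloured on a log scale. Igf1 and Igfbp6 peak in fibroblast-like cells, Igfbp3 in endothelial-like cells, Igfbp2 and Igfbp4 in reticular stromal-like cells and Igf1r in neutrophil-like cells.

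The binding protein genes divided among stromal and vascular classes. Igfbp2 was low outside reticular stromal-like cells, with 357 and 146 CPM on days 10 and 12 from 85 and 326 cells. Those cells gave 33.5% and 29.8% of all Igfbp2 UMIs on these days from 1.42% and 2.73% of the UMIs. An Igfbp2 UMI was found in 11.8% and 9.82% of them after thinning, and in 28.2% and 33.7% unthinned. Endothelial-like cells held 6.09, 30.5 and 50.6 CPM on days 8, 10 and 12, and pericyte or smooth muscle-like cells 79.9, 60.0 and 21.1 CPM. B lineage-like cells held 0.956 CPM on day 12.

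Igfbp3, whose product carries most circulating IGF in adults, was highest in endothelial-like cells. They held 702, 836 and 672 CPM on days 8, 10 and 12, and the next class, fibroblast-like or pericyte or smooth muscle-like cells, held at most 107 CPM. Within libraries the log2 ratio of endothelial-like to all other cells was 5.38, 5.35 and 5.52, a mean of 5.42 ± 0.10 (SD, n = 3) or 42.7-fold. Endothelial-like cells gave 55.4%, 64.7% and 62.4% of all Igfbp3 UMIs from 2.90%, 4.31% and 3.48% of the UMIs. Cells gated as arterial by Gja4, Gja5, Sox17, Hey1, Efnb2 and Bmx held 1855 and 1420 CPM on days 10 and 12, above sinusoidal cells at 628 and 416 CPM and other endothelial-like cells at 413 and 607 CPM. After thinning, 52.3% of arterial, 18.6% of sinusoidal and 0.299% of B lineage-like cells had an Igfbp3 UMI on day 12. The endothelial share over all subsets was 28.4% thinned and 54.1% unthinned.

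Igfbp4 was broad. On day 12 reticular stromal-like cells held 1916 CPM, fibroblast-like cells 1432, endothelial-like cells 1176 and tendon or ligament-like cells 967, with no overlap of neighbouring intervals in this order. Within the endothelium the order was the opposite of that of Igfbp3, with 1591 CPM in sinusoidal and 830 CPM in arterial cells on day 12. Granulocyte progenitor-like cells held 571 CPM on day 12 while B lineage-like cells held 147 CPM.

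Igfbp5 was highest in fibroblast-like cells, at 1681, 1404, 2494 and 2166 CPM, followed on day 12 by pericyte or smooth muscle-like cells at 1443 CPM and tendon or ligament-like cells at 862 CPM. Fibroblast-like cells exceeded the other cells by 3.53 ± 0.97 on the log2 scale (n = 4 libraries). The share of cells with an Igfbp5 UMI after thinning was 49.4% in fibroblast-like, 16.3% in chondrocyte-like and 4.99% in B lineage-like cells on day 12.

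Igfbp6, whose product prefers IGF2, was highest in fibroblast-like cells (764, 744, 368 and 457 CPM), followed by tendon or ligament-like cells (306, 390, 114 and 179 CPM). These 2 classes held 47.7% and 17.7% of all Igfbp6 UMIs on day 7 and 38.0% and 38.6% on day 12. Other stromal classes, the endothelial-like cells and B lineage-like cells stood under 20 CPM on each day. Igfbp7 was highest in vessels, at 5348, 4184 and 3965 CPM in pericyte or smooth muscle-like and 4848, 3952 and 2702 CPM in endothelial-like cells on days 8, 10 and 12. Tendon or ligament-like cells held 2552, 2995, 2628 and 2598 CPM and chondrocyte-like cells 1160, 1192, 1276 and 1023 CPM, far above macrophage-like cells at 82.1 to 124 CPM. Arterial cells held 4048 CPM and sinusoidal cells 1751 CPM of Igfbp7 on day 12.

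**Figure D2:**
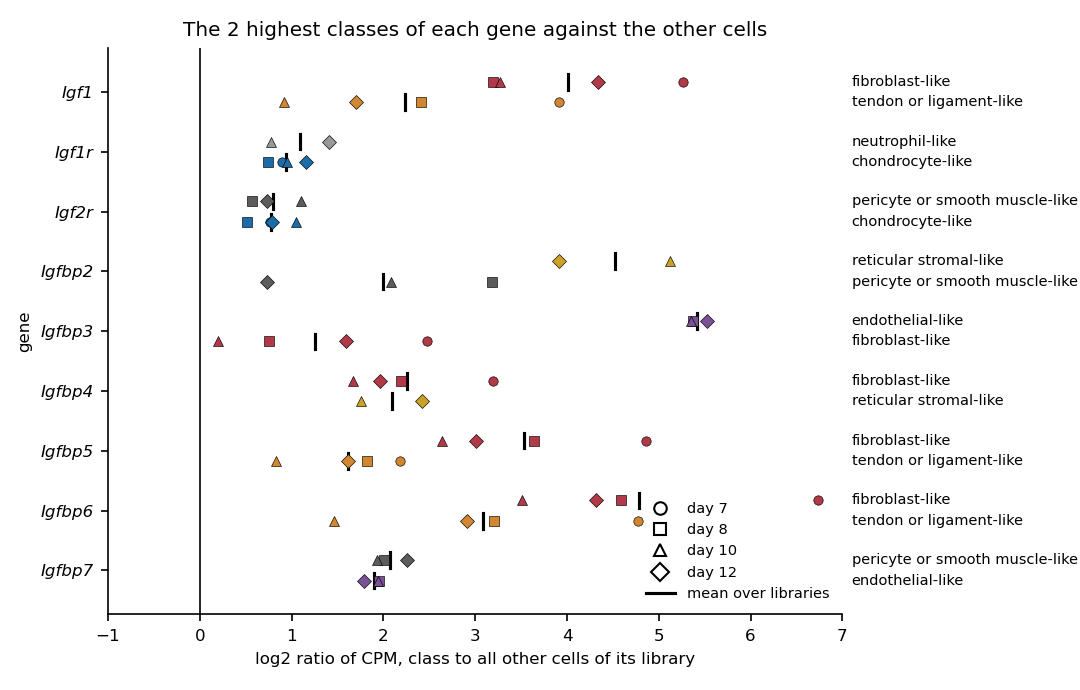
Log2 ratio of CPM in a class to all other cells of the same library (horizontal axis), for the 2 classes with the highest mean for each gene. Symbols are libraries and bars are means over libraries. The makeup of the other cells differs between libraries. The Igfbp3 ratio of endothelial-like cells lies between 5.35 and 5.52, whereas the Igf1 ratio of fibroblast-like cells runs from 3.19 to 5.26.

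The classes share the same 4 libraries, so these ratios are not independent of each other. Library makeup also differs, with chondrocyte-like cells holding 91.9%, 71.8%, 8.85% and 29.1% of UMIs on days 7, 8, 10 and 12. The ratios of a class therefore have unlike comparators between libraries, and the part of this makeup was not tested. Fibroblast-like cells were at least 1.5-fold above the other cells in every library for 4 of the 9 genes (Igf1, Igfbp4, Igfbp5 and Igfbp6), and 9.56% of all genes read met this rule. Tendon or ligament-like cells met it for 5 (Igf1, Igfbp4, Igfbp5, Igfbp6 and Igfbp7), where 4.58% of all genes did. Chondrocyte-like cells met it for Igf1r (8.19% of all genes) and macrophage-like cells for Igf1 (12.3%). Endothelial-like cells met it for 3 genes (Igfbp3, Igfbp4 and Igfbp7), and 13.1% of all genes did. Pericyte or smooth muscle-like cells met it for Igfbp2, Igfbp5 and Igfbp7 (19.2% of all genes), reticular stromal-like cells for Igfbp2 and Igfbp4 (18.6%) and neutrophil-like and granulocyte progenitor-like cells for Igf1r (13.5% and 23.1%). The Igfbp2 value of the pericyte or smooth muscle class rests on few cells, 25 UMIs in 2 of 86 cells on day 8 and 19 UMIs in 6 of 128 cells on day 12. The exact two-sided sign-flip permutation test over libraries cannot give a p under 0.13 with 4 libraries, 0.25 with 3 or 0.5 with 2. Over the 153 gene and class comparisons the smallest Benjamini-Hochberg adjusted permutation p was 0.571. With these floors no comparison could have passed, so nothing is read from this test.

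Over 45 sums of a class in a library, the 3 genes whose log2(CPM + 10) followed each member most closely were found among 16359 genes. These correlations are descriptions without a test, since the sums share libraries and depth. Igf1 was closest to Gas6, a ligand of the TAM receptors (Pearson r = 0.90), then Rnase4 (0.85) and Adam33 (0.78). Igfbp3 followed the endothelial genes Cavin2 (0.94), Ramp2 (0.93) and Thsd7a (0.93), and Igfbp7 followed Piezo2 (0.96), a stretch-activated channel, Rhoj (0.95) and Mxra7 (0.95). Igfbp6 followed Olfml1 (0.97), E130114P18Rik (0.95) and Clec3b (0.95), and Igfbp5 followed Gas1 (0.94), the fibrillar collagen gene Col3a1 (0.93) and Antxr1 (0.93). Igfbp2 followed Cxcl12 (0.85), Kank4 (0.84) and Ebf3 (0.81), of which Cxcl12 and Ebf3 were markers of the reticular stromal gate, as Clec3b and Gas1 were markers of other gates. Igfbp4 followed Fbln5, an elastic fibre gene (0.83), Prrg1 (0.82) and Fut11 (0.81). Igf2r followed its overlapping partner Airn (0.94), Snap47 (0.90) and Mras (0.88). Igf1r had the loosest neighbours, the mitochondrial calcium channel gene Mcu (0.73), Brd3 (0.72) and Rab28 (0.71). Among the members themselves r was highest between Igf1 and Igfbp4 (0.75), Igfbp3 and Igfbp7 (0.74), and Igfbp4 and Igfbp5 (0.71).

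Between days 7 and 12, Igfbp2, Igfbp5 and Igfbp4 had the largest log2 ratios in chondrocyte-like cells, of which Igfbp2 stood at 1.17 CPM on day 7. Igfbp5 stood at 50.5, 81.5, 472 and 231 CPM on days 7, 8, 10 and 12, so the day 10 library was the highest and both late libraries lay above both early ones. Igfbp4 stood at 59.7, 90.6, 163 and 204 CPM and was higher on each later day. As a log2 ratio, day 12 over day 7 was 2.20 (95% counting interval 2.13 to 2.27) for Igfbp5 and 1.78 (1.71 to 1.84) for Igfbp4. Igf1 (1.42, 1.28 to 1.55), Igfbp2 (2.29, 1.86 to 2.79) and Igfbp6 (1.14) were also higher, from levels of 1.17 to 14.6 CPM on day 7. The receptors moved apart, with Igf1r at a log2 ratio of 0.62 (0.59 to 0.65) and Igf2r at -0.67 (-0.71 to -0.63). Igfbp3 (0.45) and Igfbp7 (-0.18) stayed within 1.5-fold.

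A gene is counted as higher or lower from a 1.5-fold difference with at least 20 UMIs in both libraries together. By this rule 6 of 9 members were higher in chondrocyte-like cells on day 12 and 1 was lower, where 31.3% of all genes read were higher and 27.9% lower. The intervals of all 7 lay past 1.5-fold. The median log2 ratio of the members was 1.14, beside 0.14 over all genes. Against the day 8 library 3 members were higher (Igf1r, Igfbp4 and Igfbp5) and 1 lower (Igfbp3), where 27.4% of genes were higher and 29.4% lower, and Igfbp6 turned to -0.45.

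The early and late chondrocyte-like cells lay in different Leiden clusters, which were made without the 10 genes. Clusters 0, 1 and 2 held 72.6% of these cells on day 7 and 2.88% on day 12, while clusters 3, 12 and 18 held 0.648% on day 7 and 78.3% on day 12. The day comparison therefore sets largely different clusters of the class against each other.

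Summed dissociation stress genes (Fos, Jun, Hspa1a and 11 others) were lower on the later days in chondrocyte-like cells, at 13547, 14180, 7790 and 6133 CPM. Hemoglobin transcripts, abundant in red cell precursors, stood at 820, 3719, 11322 and 7735 CPM there, and fibroblast markers at 461, 557, 936 and 823 CPM. B lineage-like cells held 54.2 and 47.5 CPM of Igfbp5 on days 10 and 12, against 472 and 231 CPM in chondrocyte-like cells. Some other blood classes ran higher, with 119 and 167 CPM in neutrophil-like and 81.0 and 103 CPM in erythroid-like cells. T or NK-like cells held 45.4 and 166 CPM, monocyte-like cells 51.7 and 52.9 CPM and granulocyte progenitor-like cells 69.8 and 30.7 CPM. For Igfbp4 the B lineage level was nearer, at 114 and 147 CPM against 163 and 204 CPM. For Igf1 the B lineage level was 42.6 and 28.1 CPM against 65.4 and 38.9 CPM. For Igfbp6 it was 5.32 and 3.35 CPM against 5.83 and 7.73 CPM, and for Igfbp2 on day 12 it was 0.956 against 5.79 CPM. The part of tissue handling, of free RNA and of cell makeup in the day differences was not tested.

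**Figure D3:**
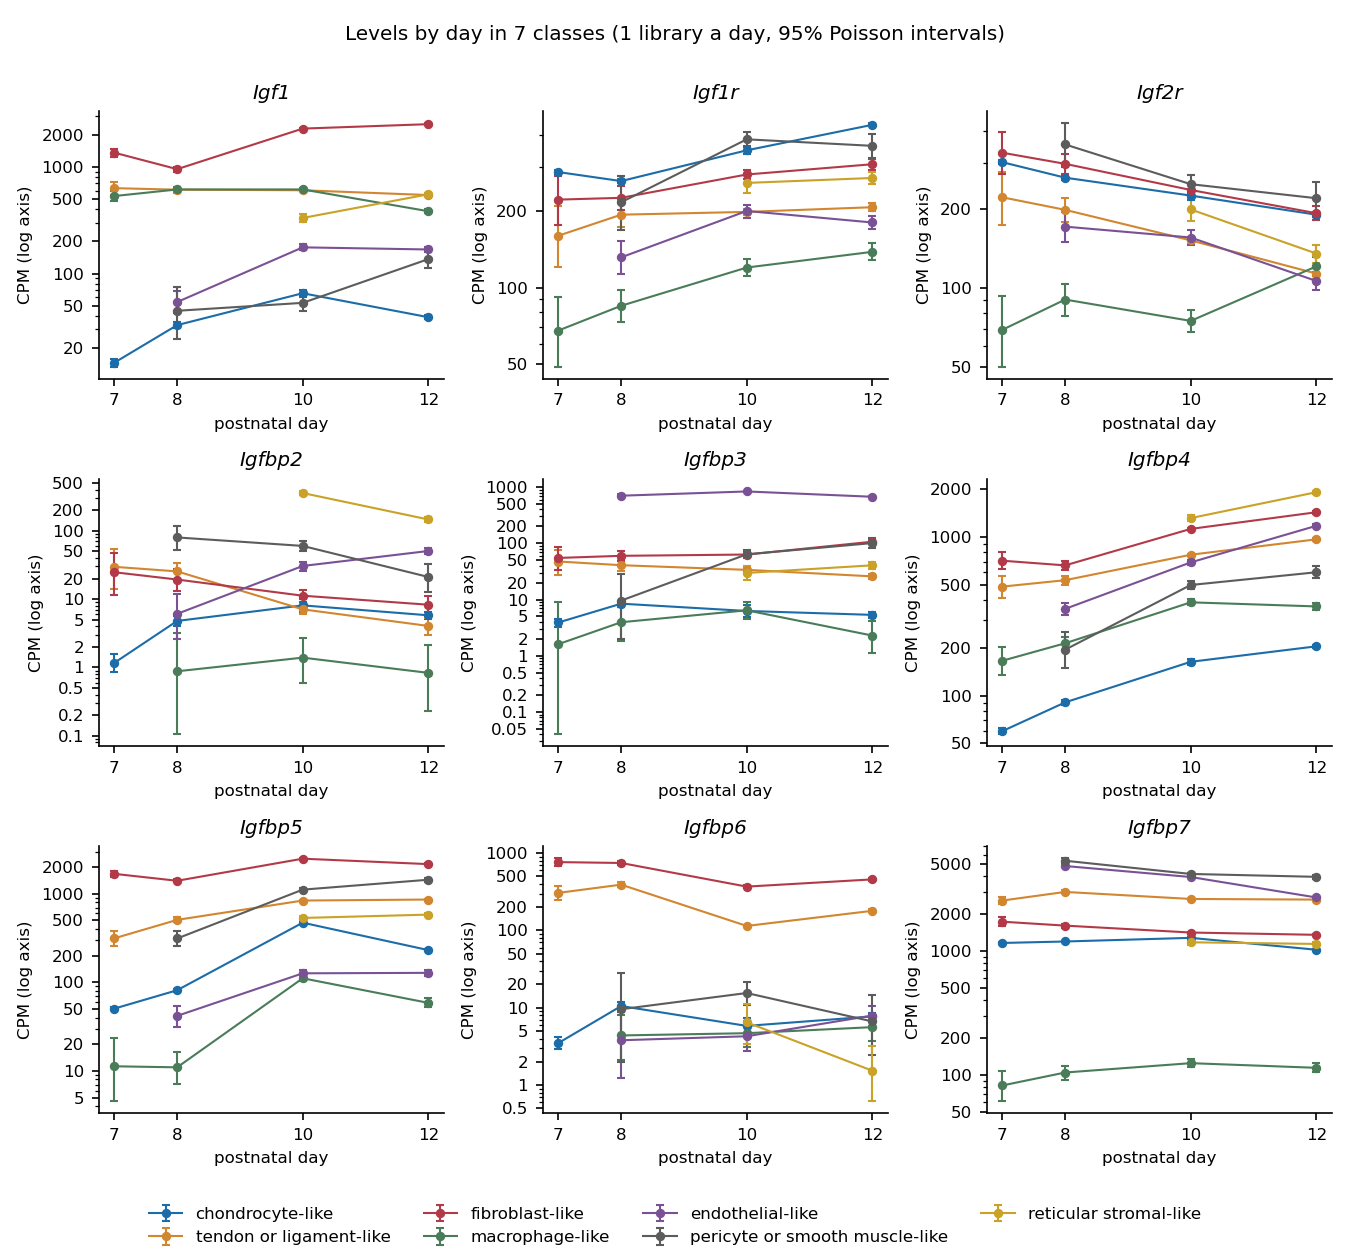
CPM by postnatal day on log axes in 7 classes for the 9 detected genes, with 95% Poisson intervals and points only where a class had at least 50 cells and 1 UMI. Lines join the 1 library of each day. In chondrocyte-like cells Igfbp4 runs from 59.7 to 204 CPM and Igf2r from 303 down to 191 CPM.

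The higher Igfbp5 level was seen inside every chondrocyte stage gate. From day 7 to day 12 it went from 30.0 to 219 CPM in resting, from 31.8 to 139 in prehypertrophic, from 17.6 to 194 in hypertrophic and from 106 to 544 in articular surface cells. The log2 ratios were 2.86, 2.13, 3.24 and 2.36, and 2.07 in cells of no stage. The hypertrophic ratio rests on 6 UMIs in 4 of 97 cells on day 7 and has an interval of 2.32 to 4.92. Articular surface cells, marked by the lubricin gene Prg4, held the most Igfbp5 of the stages on each day. Their level reached 850 CPM on day 10. On day 12 the prehypertrophic level lay below the 167 CPM of neutrophil-like cells, and the hypertrophic level lay near it.

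Igfbp4 was higher in each stage too, with log2 ratios of 1.66 (resting), 2.08 (prehypertrophic), 0.73 (hypertrophic) and 1.80 (articular surface). The day 12 levels were 172, 175, 277 and 277 CPM in this order. The resting and prehypertrophic levels lay close to 147 CPM in B lineage-like and 155 CPM in neutrophil-like cells, beside 107 CPM in monocyte-like cells. Igf2r was lower in articular surface (-0.67) and hypertrophic cells (-1.09), and within 1.5-fold in resting (-0.48) and prehypertrophic cells (-0.51). Igf1r was higher in resting (0.66) and articular surface cells (0.71) and within 1.5-fold in prehypertrophic cells (0.55), whereas in hypertrophic cells its ratio was -0.18 with an interval of -0.47 to 0.13. The hypertrophic values rest on 97 cells on day 7 and 270 on day 12. Igfbp7 differed more between stages than between days, with 1308 and 1328 CPM in resting, 621 and 553 in prehypertrophic and 1741 and 2179 in articular surface cells on days 7 and 12.

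**Figure D4:**
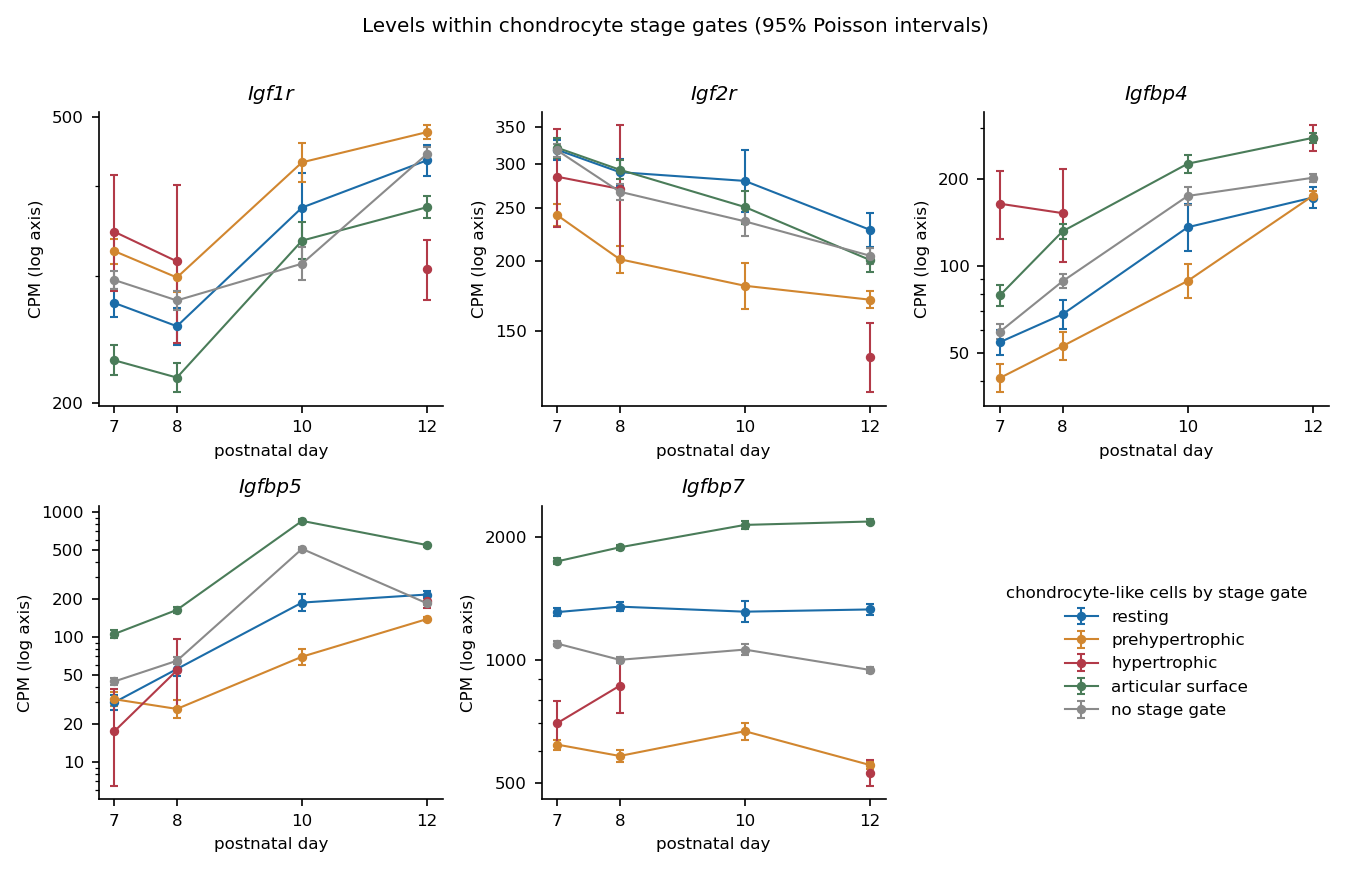
CPM by postnatal day on log axes for 5 genes within the stage gates of chondrocyte-like cells, with 95% Poisson intervals. The hypertrophic gate is not drawn on day 10, where it held 43 cells. Articular surface cells lie highest for Igfbp5 and Igfbp7 on each day.

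Since Igfbp4 and Igfbp5 were both higher in the later libraries, the 150 bases before their RefSeq start sites (GRCm38.p6) are shown, 5′ to 3′ on the strand of the gene, with TATAAA in capitals where present.
Igfbp4, chr11:99041094-99041243, plus strand: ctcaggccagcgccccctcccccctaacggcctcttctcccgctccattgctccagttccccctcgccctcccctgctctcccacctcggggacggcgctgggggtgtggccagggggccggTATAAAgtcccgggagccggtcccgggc
Igfbp5, chr1:72874866-72875015, minus strand: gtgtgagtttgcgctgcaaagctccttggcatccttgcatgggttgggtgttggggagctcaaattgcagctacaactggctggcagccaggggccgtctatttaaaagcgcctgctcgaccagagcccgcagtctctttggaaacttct
The motif TATAAA, searched on both strands, begins 28 bases before the Igfbp4 start and is not found in the Igfbp5 window of 300 bases. It was present in 13.6% of 32851 mouse promoter windows and in 2 of the 10 members, Igfbp4 and Igfbp6. The Igfbp4 window held 27 CG pairs and that of Igfbp5 10, beside a median of 7.0 over all windows. All 10 members matched the table, with 14 entries. Igfbp5 lies on chromosome 1 at 72857932 to 72874884 (GENCODE M21, GRCm38), next to Igfbp2 at 72824503 to 72852474 on the opposite strand, and the 2 neighbours had different leading classes.

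In fibroblast-like cells 3 members were higher on day 12 than on day 7 (Igf1, Igfbp3 and Igfbp4) and 3 lower (Igf2r, Igfbp2 and Igfbp6), where 25.0% of all genes read were higher and 20% lower. Only Igf1 (log2 ratio 0.89, 0.76 to 1.02) and Igfbp4 (1.01) had intervals past 1.5-fold. In tendon or ligament-like cells 2 were higher (Igfbp4 at 0.98 and Igfbp5 at 1.44) and 4 lower, where 10.5% of genes were higher and 37.7% lower. The lower genes were Igf2r (-0.99), Igfbp2 (-2.98, from 10 and 52 UMIs), Igfbp3 (-0.96) and Igfbp6 (-0.78).

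These 2 counts rest on the scaling. TMM scaling was fitted over all class and library sums together. It added 0.80 to every log2 ratio in tendon or ligament-like and 0.29 in fibroblast-like cells, and -0.06 in chondrocyte-like and macrophage-like cells. By CPM the median log2 ratio over all genes read was -0.27 in tendon or ligament-like and 0.08 in fibroblast-like cells. The shift therefore did not set the bulk of genes level between these days. Under TMM scaling 4 members were higher and 1 lower in tendon or ligament-like cells, with Igfbp6 at 0.02 and Igf2r at -0.19. In fibroblast-like cells 5 were higher and 1 lower. The shares of all genes higher and lower under TMM are not given here, and those above hold for CPM only. Igfbp4 and Igfbp5 in tendon or ligament-like cells, and Igfbp4 in fibroblast-like cells, were higher under both scalings. Dissociation stress genes stood at 8944 and 2630 CPM in tendon or ligament-like cells and at 8453 and 3165 CPM in fibroblast-like cells on days 7 and 12. Hemoglobin stood at 306 and 4201 CPM and at 357 and 7720 CPM, and chondrocyte markers at 10003 and 4468 CPM and at 8343 and 2824 CPM, in the same order. Their part was not tested.

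In macrophage-like cells 4 of 7 members read were higher (Igf1r, Igf2r, Igfbp4 and Igfbp5) and 0 were lower, where 32.7% of genes were higher and 14.2% lower. Igfbp4 stood at 166, 214, 387 and 365 CPM, a log2 ratio of 1.12 with its interval past 1.5-fold. Igfbp5 went from 11.3 to 58.7 CPM, which is close to the 47.5 CPM of B lineage-like cells on day 12. Igfbp6 had 0 UMIs on day 7 and 27 on day 12. Igf1 was within 1.5-fold, at a log2 ratio of -0.48, and against day 8 it was lower, as 12.4% of genes were. The class held 64 cells on day 7. Between days 7 and 12 hemoglobin in it stood at 187 and 4636 CPM, chondrocyte markers at 5088 and 2704 CPM and stress genes at 5352 and 4686 CPM, and their part was not tested.

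**Figure D5:**
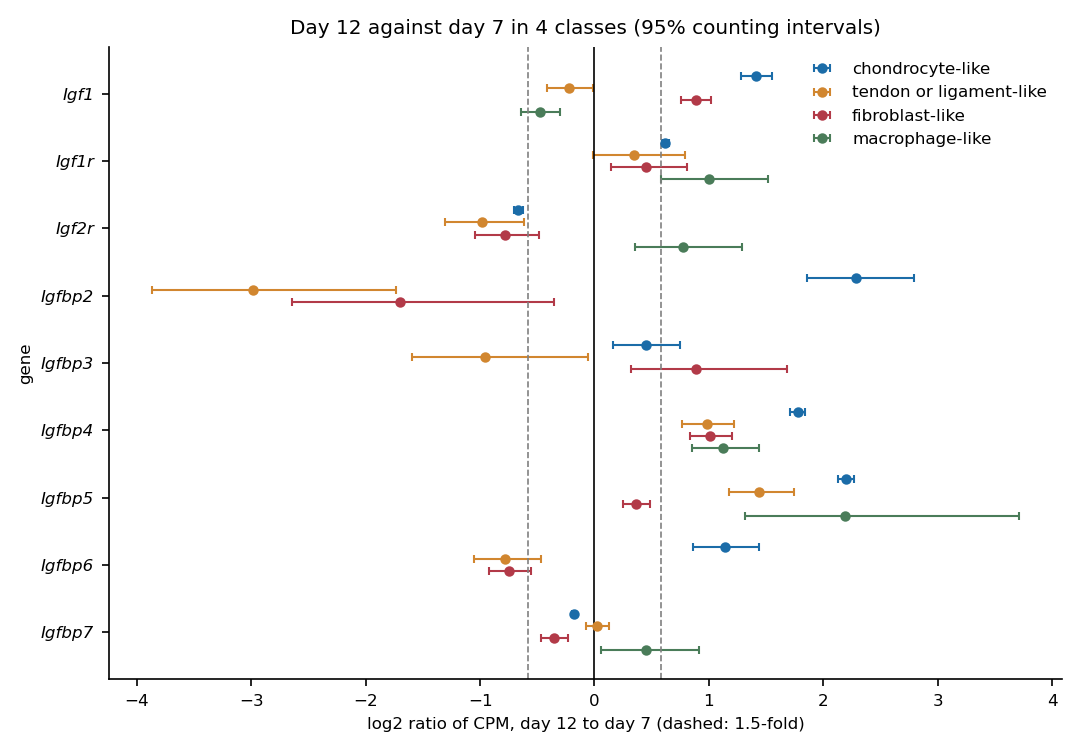
Log2 ratio of CPM on day 12 to day 7 (horizontal axis) with 95% counting intervals in 4 classes, for genes with at least 20 UMIs in both libraries together and at least 1 UMI on day 7. Dashed lines mark 1.5-fold. Igfbp4 lies right of 0 in all 4 classes, between 0.98 and 1.78.

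Classes with too few cells on day 7 were compared between days 12 and 8. In endothelial-like cells Igf1 (log2 ratio 1.62), Igfbp2 (2.89), Igfbp4 (1.74), Igfbp5 (1.59) and Igfbp6 (0.83) were higher and Igf2r (-0.69) and Igfbp7 (-0.84) lower, 5 and 2 of 9, where 38.3% of genes were higher and 14.0% lower. The Igfbp4 level went from 352 over 692 to 1176 CPM. Of the endothelial-like cells, 28 of 229 on day 8 and 167 of 510 on day 12 passed the sinusoidal gate. The part of this makeup in the endothelial differences was not tested. The Igfbp6 value rests on 5 UMIs on day 8 and turned negative under a stricter gate, thinning and with day 10 as the late library. In pericyte or smooth muscle-like cells Igf1 (1.52), Igf1r (0.72), Igfbp3 (3.00), Igfbp4 (1.60) and Igfbp5 (2.19) were higher and Igf2r (-0.69) and Igfbp2 (-1.90) lower, 5 and 2 of 8, where 39.2% and 16.0% of genes were. Igfbp2 there turned to 1.71 under a stricter gate, 2.03 with Leiden clusters and 1.88 without the 6% of cells with the highest UMI totals, so it has no settled direction. Igfbp3 there rests on 3 UMIs in 2 cells on day 8 and 91 UMIs in 9 of 128 cells on day 12. In osteoblast lineage-like cells 2 members were higher and 4 lower, where 16.9% and 27.4% of genes were. Of these, Igf2r (-1.38) and Igfbp7 (-1.10) had intervals past 1.5-fold. TMM scaling, which added 0.48, gave 4 higher and 3 lower, with no share of all genes under that scaling to set beside them. Stress genes stood at 8402 and 2611 CPM in endothelial-like, 8504 and 2699 CPM in pericyte or smooth muscle-like and 9156 and 1232 CPM in osteoblast lineage-like cells on days 8 and 12. Hemoglobin stood at 1679 and 4136, 910 and 5902, and 728 and 2804 CPM in the same order, and the part of both lists was not tested.

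The genes around the IGF receptor were read from 6 lists in chondrocyte-like cells, day 12 against day 7. Of 23 adaptor and kinase genes downstream of the receptors, 16 were higher and 0 lower, where 31.3% and 27.9% of all genes read were, with a median log2 ratio of 0.84 beside 0.14 over all genes. The largest were Grb14, an adaptor that binds insulin and IGF receptors (1.84, from 31.9 to 115 CPM), Akt1 (1.30), Akt2 (1.18), Pik3cb (1.16) and the docking protein gene Irs1 (1.15, from 110 to 245 CPM). Grb10, an imprinted adaptor, stood highest of this list in chondrocyte-like cells on day 12 (969 CPM). Counts for this list were 5 higher and 2 lower in tendon or ligament-like, 9 and 1 in fibroblast-like, and 8 and 1 in macrophage-like cells. All genes were higher and lower at 10.5% and 37.7%, 25.0% and 20%, and 32.7% and 14.2% in these classes, so the macrophage count of higher genes lay near its background.

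The same shares of all genes, 31.3% higher and 27.9% lower, are the background for the other lists in chondrocyte-like cells. Of 9 genes for FoxO factors and genes known to be regulated by them, 6 were higher and 1, Trib3 (-1.38), lower, with Foxo4 at 1.28. Among 7 insulin and growth hormone receptor pathway genes 3 were higher, among them Stat5b (1.08) and the insulin receptor gene Insr (0.78), and 1 was lower, near the background. The growth hormone receptor gene Ghr was level in chondrocyte-like cells at 307 and 310 CPM. It stood at 620 CPM in fibroblast-like and 469 CPM in reticular stromal-like cells on day 12, the highest of its list in each of these 3 classes.

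Of 9 genes that set how much IGF is free, 3 were higher and 5 lower, with the share of higher genes near the background. The lower ones were Ctsd (-1.81), Igfals (-1.65), Mmp3 (-1.39), the PAPPA inhibitor gene Stc1 (-1.14) and the IGFBP protease gene Pappa2 (-0.67). Stc2 (0.89), Htra1 (0.82) and Adam12 (0.62) were higher, and Pappa was level at 53.7 and 54.9 CPM. Ctsd had 76 and 26 UMIs. Pappa stood at 822 CPM in reticular stromal-like cells on day 12, the highest of the list there. Adam12 led the list in endothelial-like cells (427 CPM) and osteoblast lineage-like cells (382 CPM), and Htra1 in tendon or ligament-like cells (452 CPM).

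Of 8 genes with an IGFBP-type domain outside the family, 1 (Ccn4, 0.75) was higher and 3 lower, among them Esm1 (-2.77, from 182 and 32 UMIs). Among 7 genes that partner Igf2 in RNA binding or imprinting, H19 stood at 2212 and 2011 CPM and Plagl1 at 1477 and 1446 CPM. In that list 0 genes were higher and 2 lower, Airn and Igf2os. Igfbp1, the liver binding protein gene, had 0 UMIs in all libraries.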

How the data were processed

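Per the labels, femoral epiphyseal cells were dissociated and captured on a MobiNova-100 droplet instrument with a 3′ kit. The protocol text also names bowel tumour tissue, so whether every step applies is not settled. The authors deposited whole-number UMI counts per gene and barcode, not normalized. Per the submitters' processing notes the genome was GRCm39. The program that counted, its annotation, strand setting and cell calling were not given in the sources used here.

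Cells needed at least 500 genes, 1000 UMIs and at most 15% mitochondrial UMIs. Each cell took the class with the best marker score (at least 0.2, and 1.25 times the next). This scoring rule was set after seeing the cells. The members, markers and lists were chosen with earlier results of these data known. No doublet caller was used. Cells with close classes stayed ungated, but whether this left out doublets was not tested. UMIs were summed by class and library, 1 UMI was added before a ratio, and a 0 stood at 3 counts. Sums (392359385 UMIs over all barcodes) set the precision. Intervals cover counting error only, and with 1 library a day no test between days exists. Shares used cells thinned to 1000 UMIs. The named genes were the members, the 6 largest and 6 smallest ratios of the lists in chondrocyte-like cells, the gene with the highest level of each of the first 3 lists in a class, and 3 like genes per member. Others named from the lists, such as Stat5b, Insr, Pappa2, Stc2, Ccn4, H19 and Plagl1, were chosen after their values were seen. Python 3.11.15, Scanpy 1.11.5, SciPy 1.17.1 and, for TMM scaling, edgeR 4.0.16 were used. In simulated sums the 1.5-fold rule left 95.7% of unchanged genes uncalled in chondrocyte-like cells. It left 71.8% in tendon or ligament-like, 79.6% in fibroblast-like and 86.0% in macrophage-like cells. A true 2-fold rise was called in 98%, 42%, 70% and 80% of genes in the same order. Intervals held the true ratio in 95.5% to 97.5% of cases. The simulated sums were Poisson draws, which the intervals assume, so this coverage was set in advance. Spread between cells or animals was not simulated. Alternatives were the cell filter, gate, Leiden clusters, TMM, thinning, added count, high-UMI cells, and baseline and late day.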

Additional observations from a re-analysis of the deposited data

Results flagged for a closer look

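Igf2r, Igfbp2, Igfbp3 and Igfbp6 moved in opposite directions between days 7 and 12 in different classes, each ratio past 1.5-fold by CPM. The counting intervals excluded no change but lay past 1.5-fold on both sides only for Igfbp2, in chondrocyte-like and tendon or ligament-like cells. Those of Igf2r in macrophage-like cells, of Igfbp3, and of Igfbp6 in tendon or ligament-like and fibroblast-like cells reached inside 1.5-fold. The differences between classes were not tested, and with 1 library a day each value has counting error only.

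Igf2r was higher in macrophage-like cells (log2 ratio 0.78) and lower in chondrocyte-like (-0.67), tendon or ligament-like (-0.99) and fibroblast-like cells (-0.78). Airn, which overlaps it, stood at 0.73, -0.62, -0.66 and 0.00 in the same order. Igfbp2 was higher in chondrocyte-like cells (2.29, from 46 to 281 UMIs) and lower in tendon or ligament-like (-2.98) and fibroblast-like cells (-1.70, from 9 and 41 UMIs).

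Igfbp3 was higher in fibroblast-like cells (0.89) and lower in tendon or ligament-like cells (-0.96), with 20 and 16 UMIs on day 7. Igfbp6 was higher in chondrocyte-like cells (1.14) and lower in tendon or ligament-like (-0.78) and fibroblast-like cells (-0.75), where its level was far higher.

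The opposition depends on the scaling for 2 of these genes. Under TMM scaling Igfbp3 was -0.16 in tendon or ligament-like cells, and Igfbp6 was 0.018 there and -0.46 in fibroblast-like cells, all within 1.5-fold. From day 8, Igfbp6 was -0.45 in chondrocyte-like cells. Igf2r under TMM was -0.19 and -0.49 in tendon or ligament-like and fibroblast-like cells, within 1.5-fold, and 0.71 and -0.73 in macrophage-like and chondrocyte-like cells. From day 7, Igfbp2 was past 1.5-fold in opposite directions under both scalings. From day 8 it was within 1.5-fold in chondrocyte-like cells, at 4.79 and 5.79 CPM on days 8 and 12. Its 281 UMIs there on day 12 lay in 82 of 4336 cells.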

How the results depend on the processing

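Of 89 alternative values for the counts of members in each direction and for the leading classes, 81 stayed within 1.5 times. The other 8 were as follows. With day 8 as the baseline, 3 members were higher in chondrocyte-like cells and 2 lower in macrophage-like cells. With day 10 as the late library, 0 were lower in chondrocyte-like and 2 in tendon or ligament-like cells. TMM scaling gave 4 higher and 1 lower in tendon or ligament-like cells, and 5 higher and 1 lower in fibroblast-like cells. No share of all genes under TMM, or with day 10 as the late library, is given beside these counts. Direction turned for Igfbp6 in chondrocyte-like cells from day 8 (-0.45), Igfbp6 in tendon or ligament-like cells under TMM (0.018) and Igf1r within the hypertrophic gate (-0.18). It also turned for Igfbp2 in pericyte or smooth muscle-like cells (1.71 with a stricter gate, 2.03 with Leiden clusters, 1.88 without high-UMI cells) and Igfbp6 in endothelial-like cells (-0.60 with a stricter gate, -0.42 thinned, -0.032 with day 10). The causes were not tested. Of the other single values, 601 stayed and 173 moved.

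Leaving out each library in turn left the class with the highest mean ratio the same for 8 to 9 of 9 members. Igf1, Igfbp3, Igfbp5, Igfbp6 and Igfbp7 kept theirs in all 9 settings run. Igf2r passed to chondrocyte-like cells in 5 settings, Igfbp4 to reticular stromal-like cells with Leiden clusters and without day 7, Igf1r to chondrocyte-like cells without day 12, and Igfbp2 to endothelial-like cells under the stricter gate. Leiden clusters for tendon or ligament-like and fibroblast-like cells, and some gates for macrophage-like and osteoblast lineage-like cells, left under 50 cells and were not run. No paired analysis was possible because each day has 1 library.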
